A study of Mus musculus with 8 samples.

Results

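The 10 genes described here encode transcription factors that pattern the lung endoderm, the tissue layer that gives rise to the airway and alveolar epithelium. They were taken by name from a table of raw gene counts: Nkx2-1, Foxa1, Foxa2, Foxa3, Gata6, Foxp1, Foxp2, Foxp4, Foxj1 and Cebpa, 10 of 43346 genes, each with a single gene ID. RNA was measured in 8 poly-A libraries of untreated cells grown to near confluence, 4 from LLC1 and 4 from MLE12. LLC1, also called Lewis lung carcinoma, was established from a tumour that arose in the lung of a C57BL animal. MLE12 is a line of mouse lung epithelium immortalised by the SV40 large T antigen, a transgene driven by the surfactant protein C promoter, so its founding cells were ones in which that promoter was active. Each group is 1 cell line, and the labels do not state that its libraries came from separate cultures, so the p-values measure the spread between these libraries, which may be technical.

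NKX2-1 is the homeodomain factor that marks the lung field in the foregut and later switches on surfactant genes in alveolar type II cells. FOXA1 and FOXA2 are forkhead pioneer factors that open chromatin at endodermal genes, GATA6 is a zinc finger factor of the same tissue, and C/EBPα drives the late maturation of the alveolar epithelium. FOXP1, FOXP2 and FOXP4 are forkhead repressors that bind DNA as dimers with one another, and FOXJ1 is the switch for motile cilia in airway cells.

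Library totals ran from 46840648 to 55285307 counts in LLC1 and from 48643667 to 76722481 counts in MLE12. Levels are CPM, counts scaled to a common library total after TMM normalisation, and log2 fold changes are LLC1 over MLE12 with their SE, so negative values are lower in LLC1. Those described as higher or lower had an adjusted p under 0.05. A count of 0 in 1 library allows up to 3 counts, or 0.0391 to 0.0641 CPM, counting error only. This bound takes each count as 1 fragment and would be higher if both mates of a pair were counted. The 5 general epithelial markers summed to 484 to 519 CPM in LLC1 and 800 to 837 CPM in MLE12. Cdh1 averaged 0.553 ± 0.0474 CPM in LLC1, against 154 ± 3.04 CPM in MLE12, and Krt18 averaged 293 ± 9.04 CPM in LLC1, against 0.930 ± 0.315 CPM in MLE12 (SD, n = 4 each). Krt8 was abundant in both lines, at 208.5 ± 7.32 CPM in LLC1, against 106 ± 2.77 CPM in MLE12. Krt19 averaged 3.80 ± 0.423 CPM in LLC1, against 554 ± 16.4 CPM in MLE12, and Epcam had 5 counts over LLC1 and 948 over MLE12. The 7 alveolar type II markers summed to 49.1 to 55.8 CPM in LLC1 and 167 to 190 CPM in MLE12, and Abca3 made up most of it in both lines. Of these 7, Sftpd had no count in either line, while Sftpa1, Slc34a2 and Lamp3 had 0, 0 and 8 counts over the LLC1 libraries and 7, 1 and 21 over the MLE12 libraries. Of 4 leukocyte markers, Ptprc and Laptm5 had 0 and 2 counts over LLC1 and 2 each over MLE12, and the list summed to 17.8 to 20.3 CPM in LLC1 and 13.7 to 16.4 CPM in MLE12, nearly all of it Csf1r and Cd68. The 5 fibroblast markers summed to 1415 to 1549 CPM in LLC1 and 314 to 352 CPM in MLE12, chiefly Col3a1 in LLC1 and Dcn in MLE12, with Thy1 at 0 counts in LLC1. The 4 endothelial markers summed to 0.456 to 0.898 CPM in LLC1 and 3.02 to 3.78 CPM in MLE12, chiefly Tek in MLE12. Tek had 12 counts over LLC1 and 839 over MLE12. Pecam1, Cdh5 and Kdr had 49, 45 and 18 counts over LLC1 and 60, 7 and 52 over MLE12. The part of these transcripts in the results was not tested. In bulk RNA, fewer cells with a transcript and less of it per cell cannot be told apart.

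Sequences upstream of 5 genes described below are shown. Nkx2-1, Foxa1 and Foxa2 are factors that were lower in LLC1 by very different amounts. Foxp4 is the tested factor that was not lower, and Sftpb is a surfactant gene that NKX2-1 is known to activate. The part of these sequences in the RNA levels was not tested. Each is the stretch of 250 bases before a start of the gene in RefSeq on build GRCm38.p6, read 5′ to 3′ on the strand of the gene. The windows lie at chr12:56536909-56537158 (minus strand) for Nkx2-1, chr12:57546112-57546361 (minus) for Foxa1, chr2:148045465-148045714 (minus) for one of 3 starts of Foxa2, chr17:47924633-47924882 (minus) for Foxp4 and chr6:72304360-72304609 (plus) for Sftpb. Capitals mark matches, on either strand, to the forkhead letters TGTTTAC or TATTTAC, the NKX2-1 letters CTCAAG or TCAAGTG (which share TCAAG), the GATA letters AGATAA and the C/EBP letters TTGCNNAA.
Nkx2-1: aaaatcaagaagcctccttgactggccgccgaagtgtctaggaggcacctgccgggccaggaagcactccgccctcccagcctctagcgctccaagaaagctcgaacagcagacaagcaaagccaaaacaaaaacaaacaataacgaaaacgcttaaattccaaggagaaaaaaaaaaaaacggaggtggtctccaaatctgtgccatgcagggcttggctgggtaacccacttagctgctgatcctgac
Foxa1: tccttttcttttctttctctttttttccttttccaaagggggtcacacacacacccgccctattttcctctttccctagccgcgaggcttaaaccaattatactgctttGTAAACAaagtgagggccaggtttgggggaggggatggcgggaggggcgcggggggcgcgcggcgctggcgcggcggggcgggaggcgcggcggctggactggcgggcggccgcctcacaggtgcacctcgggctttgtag
Foxa2: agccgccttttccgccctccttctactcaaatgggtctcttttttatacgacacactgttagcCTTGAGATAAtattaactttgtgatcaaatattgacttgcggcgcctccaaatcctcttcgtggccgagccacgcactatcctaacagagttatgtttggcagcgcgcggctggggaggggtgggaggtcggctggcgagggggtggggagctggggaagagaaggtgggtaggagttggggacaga
Foxp4: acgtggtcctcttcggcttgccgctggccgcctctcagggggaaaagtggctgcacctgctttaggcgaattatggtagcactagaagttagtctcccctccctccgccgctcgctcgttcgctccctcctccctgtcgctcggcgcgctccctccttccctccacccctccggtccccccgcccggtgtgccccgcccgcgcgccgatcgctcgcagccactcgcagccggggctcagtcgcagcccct
Sftpb: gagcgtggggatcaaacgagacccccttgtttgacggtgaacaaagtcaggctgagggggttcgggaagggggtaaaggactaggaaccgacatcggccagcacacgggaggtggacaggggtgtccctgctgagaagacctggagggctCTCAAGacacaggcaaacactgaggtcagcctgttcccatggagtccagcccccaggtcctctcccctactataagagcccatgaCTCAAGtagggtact
The Foxa1 window holds 1 forkhead match, which begins 141 bases before the start. In the Foxa2 window an NKX2-1 match begins 187 bases before the start and overlaps a GATA match that begins at 183 bases. This window belongs to an internal start, within the deposited span of the gene, and the windows of the other two Foxa2 starts hold no match. The Sftpb window holds 2 NKX2-1 matches, at 100 and 15 bases before the start. No match lay in the Nkx2-1 and Foxp4 windows, which says only that these letters are not in these 250 bases. Windows were found for 7 of the 10 genes (11 windows in all), and not for Gata6, Foxp2 and Foxj1. Of the others, 1 window of Foxa3 held CTCAAG and 1 of 3 windows of Foxp1 held TTGCNNAA. Among 32536 windows of this length over all genes, 3.17% held TGTTTAC, 2.72% TATTTAC, 13.3% CTCAAG, 2.60% TCAAGTG, 9.97% AGATAA and 9.57% TTGCNNAA. The observed over expected CpG content was 0.564 for Nkx2-1, 0.887 for Foxa1, 0.730 for the Foxa2 window shown, 0.959 for Foxp4 and 0.332 for Sftpb, beside a median of 0.378 over all windows. Over the 11 windows of the factors it ran from 0.240 in a Foxp1 window to 1.12 in another.

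The comparison asks which of these factors LLC1 cells transcribe at a level other than that of MLE12 cells. Most were lower in LLC1. Nkx2-1, Foxp2 and Foxa1 were below 1 CPM in LLC1 and lower by 115-fold or more, Gata6 was 16.8-fold lower, Foxa2, Foxp1 and Cebpa were lower by 2.17- to 2.82-fold, and Foxp4 was higher by 0.37 on the log2 scale. Foxj1 was lower at very low counts, and Foxa3 could not be tested. Of the 9 factors that passed the count filter, 8 were called lower in LLC1 and 1 higher by edgeR's quasi-likelihood test at an adjusted p under 0.05. Across all 18546 genes tested, 40.9% were called lower and 40.7% higher, 81.6% in all, so a call by itself is common between these lines. Tested against a fold of 2 (edgeR's glmTreat), 7 of the 9 were lower in LLC1 and 0 higher. Of all genes, 16.9% were lower and 16.7% higher by that test, 33.7% in all. Libraries of the lines did not overlap for the 8 lower genes, nor for Foxp4 on the other side. The same holds for 38.7% of all tested genes with LLC1 lower and 37.7% with LLC1 higher. The median log2 fold change of the 9 was -2.67, beside 0.02 for all genes tested. Their median absolute log2 fold change was 2.67, beside 0.74 over all genes.

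**Figure D1:**
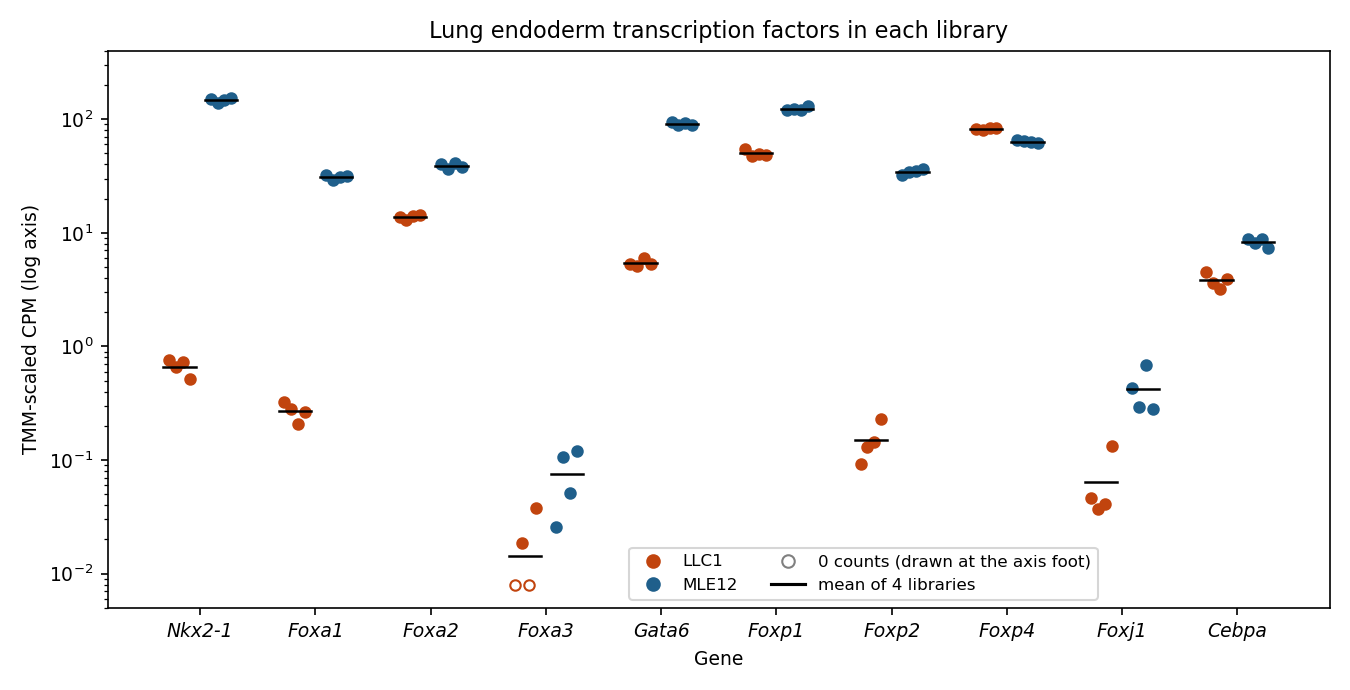
Level of each of the 10 factors in every library, as TMM-scaled CPM on a log axis, with LLC1 left of MLE12 for each gene and the mean of 4 libraries as a bar. The points of the lines are far apart for Nkx2-1, Foxa1, Gata6 and Foxp2, and only for Foxp4 are the LLC1 points the higher ones.

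Nkx2-1 (ENSMUSG00000001496, chromosome 12, 56531958 to 56536908, mm10) had 33, 35, 35 and 27 counts in the LLC1 libraries, against 11553, 10369, 11618 and 7605 counts in the MLE12 libraries. Scaled to depth these were 0.762, 0.654, 0.723 and 0.514 CPM in LLC1, against 149, 137, 147 and 152 CPM in MLE12. Every MLE12 library was far above every LLC1 library, and the gene was 222-fold lower in LLC1 (log2 fold change -7.79 ± 0.08, adjusted p = 3.0e-23 by edgeR's quasi-likelihood test). Ranked per length among all tested genes, Nkx2-1 lay at the 13.7th percentile in LLC1 and the 93.9th in MLE12. Its mean level in LLC1 was 0.421% of that in MLE12 on plain library totals. Of 2432 genes with at least 100 CPM in MLE12, 18 had a smaller LLC1 share, and the smallest was 0.301%. Whether counts this low are transcripts of LLC1 or reads of the other line was not tested. An antisense gene, Gm26973, overlaps Nkx2-1 and had 1 count over the LLC1 libraries and 935 over the MLE12 libraries (-8.86 ± 0.40). It amounts to 2.27% of the Nkx2-1 counts, and reads of the 2 genes cannot be told apart if the counting ignored strand.

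The 5 tested genes whose levels per length lay closest to those of Nkx2-1 over the 8 libraries were Cd24a, Ctgf, Timp3, Ndnf and Spint2. Closeness was the root mean square difference of log2(RPKM + 0.1), where RPKM is counts per kilobase of the deposited gene length, scaled as CPM. It ran from 0.17 for Cd24a to 0.37 for Spint2. Cd24a, a surface glycoprotein gene of epithelia, averaged 0.201 ± 0.0569 RPKM in LLC1 and 49.8 ± 4.84 RPKM in MLE12, beside 0.233 ± 0.0385 RPKM in LLC1 and 51.6 ± 2.25 RPKM in MLE12 for Nkx2-1 (SD, n = 4 each).

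The FOXA factors were lower in LLC1 by unequal amounts. Foxa1 (ENSMUSG00000035451, chromosome 12, 57540631 to 57546121) had 0.323, 0.281, 0.207 and 0.266 CPM in LLC1, against 32.3, 29.3, 30.7 and 31.8 CPM in MLE12. It was 115-fold lower in LLC1 with no overlap between the lines (-6.84 ± 0.11, adjusted p = 9.3e-21), and its LLC1 level was 0.808% of the MLE12 level. Foxa2 (ENSMUSG00000037025, chromosome 2, 148042877 to 148046969) had 13.8, 12.9, 14.1 and 14.4 CPM in LLC1, against 40.2, 36.8, 40.9 and 37.8 CPM in MLE12. Its LLC1 libraries were also all lower, but by 2.82-fold (-1.50 ± 0.06, adjusted p = 1.2e-14). Foxa3, the FOXA member best known from liver and gut (ENSMUSG00000040891, chromosome 7, 19013282 to 19023538), had 0, 1, 0 and 2 counts in LLC1 and 2, 8, 4 and 6 counts in MLE12. These are too few to test, and the ranges of counts touch.

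The make-up of the FOXA family differed between the lines. As a share of the summed counts per kilobase of Foxa1, Foxa2 and Foxa3, Foxa2 made up 98.3%, 98.2%, 98.9% and 98.3% in the LLC1 libraries, against 62.6%, 62.7%, 64.1% and 61.4% in the MLE12 libraries. Foxa1 supplied nearly all of the rest: 1.43 ± 0.279% in LLC1 and 37.2 ± 1.09% in MLE12 (SD, n = 4 each). The Foxa2 share was 35.8 percentage points higher in LLC1 (exact two-sided permutation test, p = 0.0286, adjusted p = 0.0343 over the 6 shares tested), and 0.0286 is the smallest p that 4 libraries against 4 allow. For Foxa3 the shares were 0.117 ± 0.146% in LLC1 and 0.144 ± 0.0881% in MLE12 (exact permutation test, p = 0.714, adjusted p = 0.714).

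Among the FOXP repressors, Foxp2 had the lowest and Foxp4 the highest level in LLC1. Foxp2 (ENSMUSG00000029563, chromosome 6, 14901349 to 15441977), a regulator of distal airway epithelium in the mouse, had 4, 7, 7 and 12 counts in LLC1, against 2490, 2577, 2752 and 1833 counts in MLE12. That is 0.0924, 0.131, 0.145 and 0.228 CPM in LLC1, against 32.2, 34.2, 34.9 and 36.7 CPM in MLE12. The gene was 224-fold lower in LLC1 (-7.81 ± 0.13, adjusted p = 1.3e-20), and its LLC1 level was 0.407% of the MLE12 level. Foxp1 (ENSMUSG00000030067, chromosome 6, 98925338 to 99522721) was present in both lines, at 55.0, 47.6, 49.7 and 48.5 CPM in LLC1, against 119.5, 123, 119.7 and 129.8 CPM in MLE12. It was 2.45-fold lower in LLC1 without overlap (-1.29 ± 0.05, adjusted p = 9.2e-15). Foxp4 (ENSMUSG00000023991, chromosome 17, 47867133 to 47924645) had 81.1, 81.0, 83.8 and 83.3 CPM in LLC1, against 66.0, 63.7, 63.0 and 61.5 CPM in MLE12. All 4 LLC1 libraries were above all 4 MLE12 libraries, by a log2 fold change of 0.37 ± 0.04 (adjusted p = 1.0e-07), which did not pass the test against a fold of 2.

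Per kilobase, Foxp4 made up 82.6 ± 1.04% of the summed FOXP transcripts in LLC1 and 53.6 ± 1.67% in MLE12. Foxp1 contributed 17.4 ± 1.05% in LLC1 and 35.8 ± 1.18% in MLE12, and Foxp2 0.0547 ± 0.0208% in LLC1 and 10.6 ± 0.563% in MLE12 (SD, n = 4 each). Each of these 3 shares differed between the lines with no overlap of libraries (exact two-sided permutation test, p = 0.0286, adjusted p = 0.0343). FOXP transcripts in LLC1 were chiefly Foxp4 with some Foxp1, while MLE12 held all 3. Foxp3, the relative that directs regulatory T cells, is left out of these shares. It was listed at 10.3 ± 0.533 CPM in LLC1, against 13.0 ± 1.11 CPM in MLE12, but it overlaps Ccdc22, whose counts were 303% of its own, so its reads are uncertain.

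**Figure D2:**
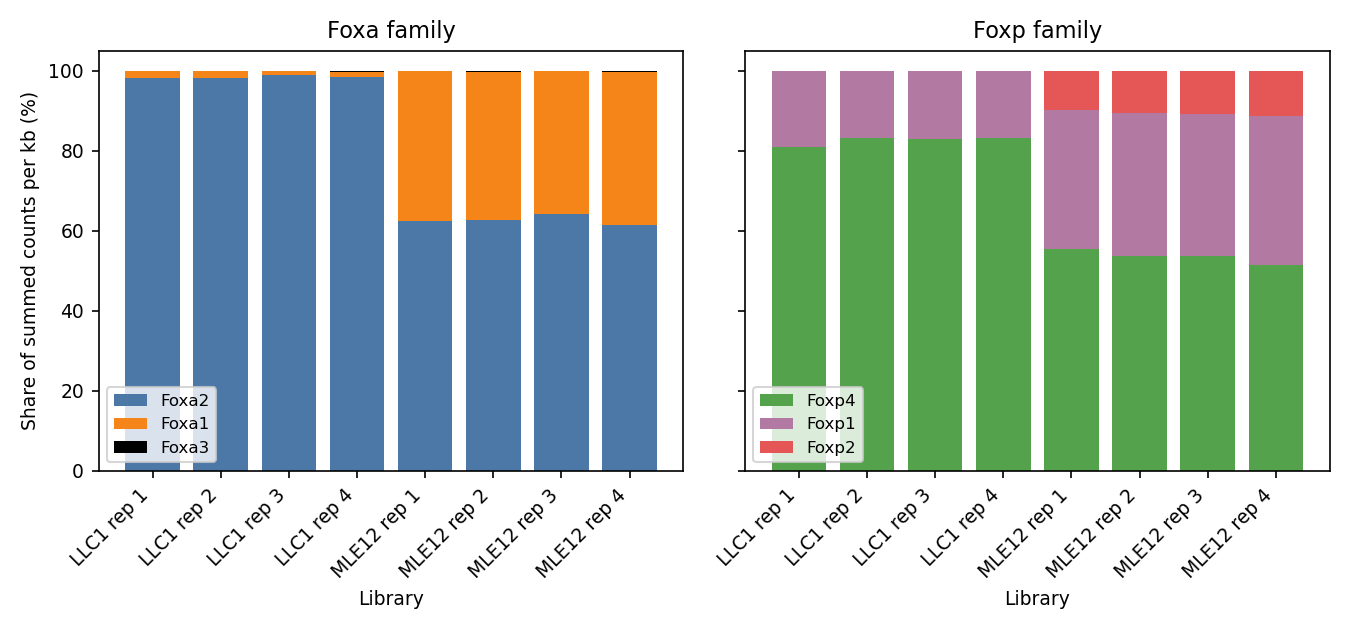
Share of each paralog in the summed counts per kilobase of its family, in percent, as stacked bars for the 4 LLC1 and then the 4 MLE12 libraries. Foxa2 fills 98.2% to 98.9% of the FOXA bars in LLC1 and 61.4% to 64.1% in MLE12, and Foxp2 is visible in the MLE12 bars alone.

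Gata6 (ENSMUSG00000005836, chromosome 18, 11052510 to 11085635) had 5.27, 5.14, 5.95 and 5.34 CPM in LLC1, against 94.9, 88.7, 91.9 and 88.3 CPM in MLE12. It was 16.8-fold lower in LLC1 in every library (-4.07 ± 0.06, adjusted p = 2.2e-21). An overlapping gene on the other strand, 1010001N08Rik, had 40 counts over LLC1 and 649 over MLE12 (-3.49 ± 0.32), or 2.57% of the Gata6 counts. Of its relatives, Gata2, Gata3 and Gata4 were tested. Gata3 was higher in LLC1 at low counts, 54 over LLC1 and 14 over MLE12 (2.44 ± 0.52). Gata4, a relative that acts in endoderm and heart, had 3.95, 4.77, 5.70 and 5.82 CPM in LLC1, against 32.0, 31.7, 33.0 and 31.1 CPM in MLE12 (-2.65 ± 0.09, adjusted p = 2.0e-15). Gata2, a factor of blood and endothelium, was higher in LLC1, with 52.6, 50.2, 55.4 and 55.3 CPM in LLC1, against 6.22, 4.97, 6.03 and 5.16 CPM in MLE12 (3.25 ± 0.07, adjusted p = 1.6e-18). Per length, the leading GATA gene was Gata2 in LLC1 (15.9 ± 0.744 RPKM, beside 1.70 ± 0.113 RPKM for Gata6) and Gata6 in MLE12 (28.5 ± 0.968 RPKM, beside 1.67 ± 0.185 RPKM for Gata2).

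Cebpa (ENSMUSG00000034957, chromosome 7, 35119293 to 35121926) had 4.51, 3.65, 3.22 and 3.94 CPM in LLC1, against 8.73, 8.10, 8.90 and 7.30 CPM in MLE12. It was 2.17-fold lower in LLC1 without overlap (-1.11 ± 0.11, adjusted p = 2.0e-08) and did not pass the test against a fold of 2. Other C/EBP genes were not lower in LLC1. Cebpg, a neighbour of Cebpa on chromosome 7, averaged 98.4 ± 4.99 CPM in LLC1, against 58.4 ± 4.58 CPM in MLE12 (0.75 ± 0.05), and Ddit3, the stress-induced member, 43.6 ± 1.07 CPM in LLC1, against 14.8 ± 0.833 CPM in MLE12 (1.56 ± 0.06). Cebpb was higher as well (0.63 ± 0.11), and Cebpd was not called (0.33 ± 0.15, adjusted p = 0.0531). Ddit3 overlaps the abundant gene Mars on the other strand, so its reads are uncertain.

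Foxj1 (ENSMUSG00000034227, chromosome 11, 116330704 to 116335399) was near the limit of detection, with 2, 2, 2 and 7 counts in LLC1, against 33, 22, 54 and 14 counts in MLE12. It was called lower in LLC1, without overlap (-2.67 ± 0.49, adjusted p = 6.4e-05), and it stood at only 0.421 ± 0.188 CPM in MLE12. Genes of the ciliary programme, a list that holds regulators such as Rfx3 and Myb beside structural genes of cilia, went in both directions. Of 29 listed, 16 were tested, of which 9 were higher in LLC1, 4 lower and 3 not called. Across all genes tested, 40.7% were higher and 40.9% lower, so calls in both directions are common between these lines. The list had a median log2 fold change of 0.46, beside 0.02 for all genes. Called members with at least 10 CPM in one line were Rfx3, a regulator of ciliary genes (0.74 ± 0.09), Dnah11, an axonemal dynein gene (-0.23 ± 0.06), and the tubulin gene Tubb4b (-0.22 ± 0.04). Ccdc39, a gene of ciliary assembly, also reached that level and was not called (9.32 ± 0.990 CPM in LLC1, against 10.7 ± 1.85 CPM in MLE12, adjusted p = 0.127 by edgeR). Dnah11 overlaps Cdca7l, whose counts were 347% of its own. Tubb4b overlaps Fam166a, whose counts were 7.68% of its own. At lower levels, the outer arm dynein gene Dnah5 had 271 counts over LLC1 and 0 over MLE12, and Myb, a regulator of early ciliated cells, had 1 count over LLC1 and 743 over MLE12. The 5 ciliated cell markers summed to 9.92 to 12.1 CPM in LLC1 and 8.55 to 13.2 CPM in MLE12, and Tekt1 had no count in LLC1 and 1 in MLE12.

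**Figure D3:**
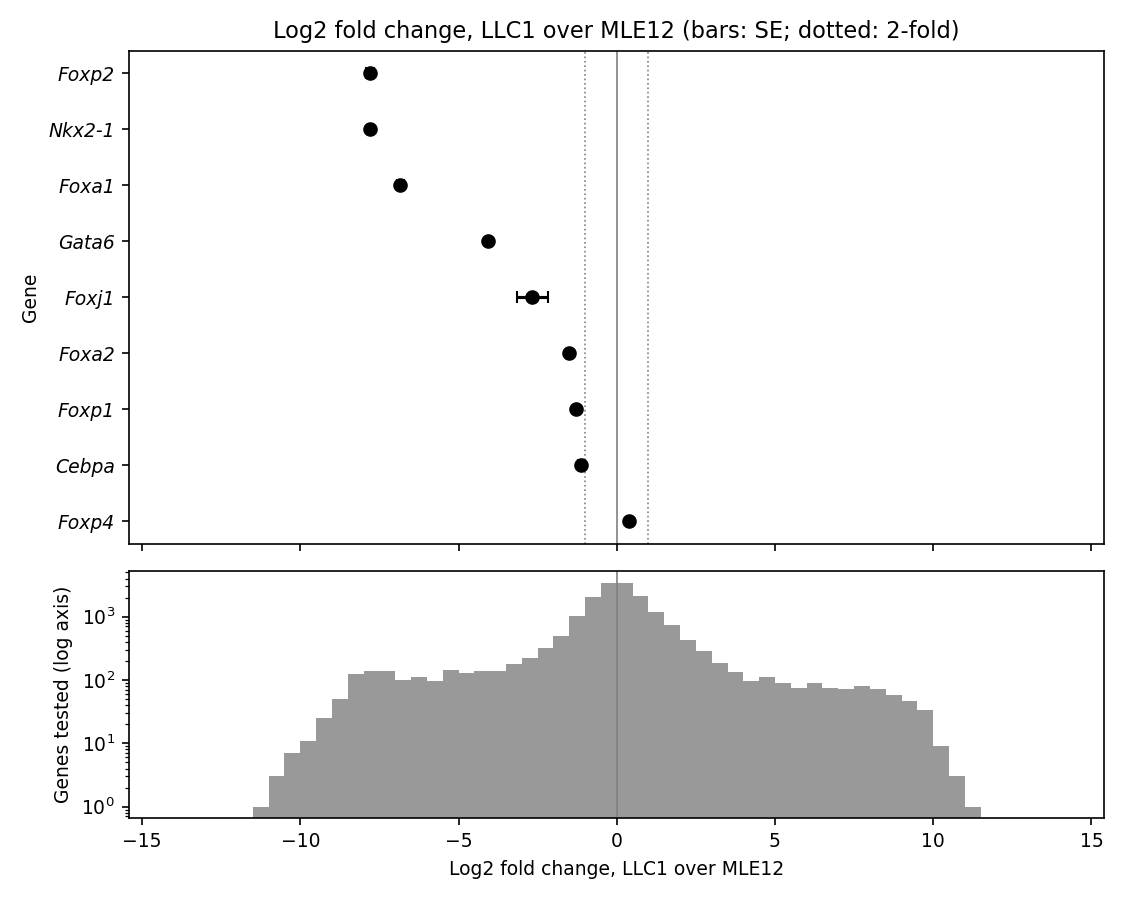
Log2 fold change of the 9 tested factors, LLC1 over MLE12, with SE bars (top), above the distribution of all 18546 tested genes on a log count axis (bottom). Foxp4 (0.37) is the only factor right of 0, and Foxp2, Nkx2-1 and Foxa1 lie beyond -6.8.

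The order of the factors by level also differed. Per length, LLC1 was led by Foxp4 at 16.7 ± 0.293 RPKM, followed by Foxa2 at 5.82 ± 0.277 RPKM and Foxp1 at 3.52 ± 0.232 RPKM. Gata6 and Cebpa (1.45 ± 0.204 RPKM) came next with overlapping libraries, then Nkx2-1 and Foxa1 (0.0844 ± 0.0152 RPKM). Foxj1, Foxp2 and Foxa3 closed the order, at 0.0246, 0.0111 and 0.00696 RPKM, and neighbours among them overlapped. In MLE12 the order was Nkx2-1, Gata6, Foxa2 (16.4 ± 0.818 RPKM), Foxp4 (12.9 ± 0.378 RPKM), Foxa1 (9.73 ± 0.425 RPKM), Foxp1 (8.63 ± 0.338 RPKM), Cebpa (3.14 ± 0.276 RPKM), Foxp2 (2.56 ± 0.137 RPKM), Foxj1 and Foxa3, and no neighbours in this order overlapped. Both orders rest on the deposited lengths, and that of Gata6 is the most uncertain. It was 3194 bases in the deposited table and 6508 bases as the union of exons in GENCODE M21, and with the longer value Gata6 stood at 0.834 RPKM in LLC1, below Cebpa, and at 13.97 RPKM in MLE12, below Foxa2. With M21 lengths Foxa1 (9.32 RPKM) and Foxp1 (8.95 RPKM) lay closer in MLE12, so their separation there depends on the length used.

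Genes that NKX2-1, FOXA and C/EBPα factors are known to activate in lung epithelium were mostly lower in LLC1 where they could be measured. Of 16 listed, 8 were tested, with 0 higher, 7 lower and 1 not called, and a median of -1.71. Of all genes tested, 40.7% were higher in LLC1 and 40.9% lower, with a median of 0.02. Against a fold of 2, 5 of the 8 were lower in LLC1, beside 16.9% of all genes. Sftpc, which encodes surfactant protein C, had 0.231, 0.131, 0.103 and 0.152 CPM in LLC1, against 25.4, 21.8, 24.2 and 22.8 CPM in MLE12 (-7.26 ± 0.14). Sftpb had 0.277, 0.337, 0.310 and 0.323 CPM in LLC1, against 32.7, 33.6, 32.3 and 31.0 CPM in MLE12 (-6.68 ± 0.10). Hopx, a homeodomain protein of alveolar type I cells, averaged 10.4 ± 0.767 CPM in LLC1, against 37.9 ± 2.18 CPM in MLE12 (-1.87 ± 0.07) and overlaps its antisense gene Hopxos. Most of the 8 genes below the count filter were near 0 in both lines, Sftpd and Scgb3a2 with no count at all. Abca3, the lipid transporter of lamellar bodies, averaged 51.8 ± 2.91 CPM in LLC1, against 124 ± 8.13 CPM in MLE12 (-1.26 ± 0.05).

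Gut and liver genes that FOXA factors serve in other endodermal organs were mostly too low to test, with 6 of 22 tested. Of these 4 were higher in LLC1, 1 lower and 1 not called, and the median was 1.25. The gene of at least 10 CPM was Onecut2, a factor of the liver and gut lineages, at 1.84 ± 0.415 CPM in LLC1, against 13.4 ± 0.973 CPM in MLE12 (-2.85 ± 0.12). Hnf4a had 2 counts over LLC1 and 3 over MLE12. Of the 18 relatives of these factors outside the 10 genes, 11 were tested, with 8 higher in LLC1, 2 lower and 1 not called, and a median of 0.75. For both lists the shares over all genes tested were 40.7% higher in LLC1 and 40.9% lower, with a median of 0.02. Nkx2-2, the NK2 homeobox gene of the ventral spinal cord and pancreas, was chosen after its values were seen. It averaged 8.21 ± 0.776 CPM in LLC1, against 0.341 ± 0.103 CPM in MLE12 (4.62 ± 0.17), so it was higher in LLC1 where Nkx2-1 was lower. Cdx2, the intestinal homeobox gene, averaged 4.49 ± 0.649 CPM in LLC1, against 0.772 ± 0.0996 CPM in MLE12 (2.52 ± 0.16).

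Other factors of the lung epithelium split. Of 20 listed, 15 were tested, with 6 higher in LLC1, 9 lower and 0 not called, and a median of -1.73. Etv4, an ETS factor of the FGF pathway, averaged 188.5 ± 5.31 CPM in LLC1, against 42.6 ± 1.18 CPM in MLE12 (2.15 ± 0.04), and the distal tip genes Sox9 (1.80 ± 0.07) and Id2 (1.61 ± 0.07) were higher in LLC1 too. Tfcp2l1, a grainyhead-related factor, averaged 0.331 ± 0.175 CPM in LLC1, against 62.6 ± 2.64 CPM in MLE12 (-7.61 ± 0.13), and the Iroquois gene Irx5 was lower in LLC1 (-1.73 ± 0.10). Another Iroquois gene, Irx1, had 0 counts over LLC1 and 522 over MLE12. Fitted fold changes of Irx1 and Dnah5 depend on the prior count, and the list medians were the same with these genes set at their bounds. Of 20 cofactors of the 10 genes, all tested, 8 were higher in LLC1, 8 lower and 4 not called, with a median of 0.03. These shares are near those of all genes tested (40.7% higher and 40.9% lower). Trib2, which promotes the breakdown of C/EBPα protein, averaged 30.7 ± 2.59 CPM in LLC1, against 0.345 ± 0.0817 CPM in MLE12 (6.51 ± 0.12). The NuRD subunit Mta1 (1.35 ± 0.04) and the co-repressor Tle1 (1.21 ± 0.05) were higher in LLC1. Nfib, a factor of lung maturation, averaged 18.8 ± 1.74 CPM in LLC1, against 243.5 ± 17.2 CPM in MLE12 (-3.70 ± 0.07). The co-repressor Tle3 (-0.98 ± 0.05) was lower in LLC1, as was the GATA cofactor Zfpm1 (-1.77 ± 0.06), which overlaps the far more abundant gene model Gm20388 and is uncertain.

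**Figure D4:**
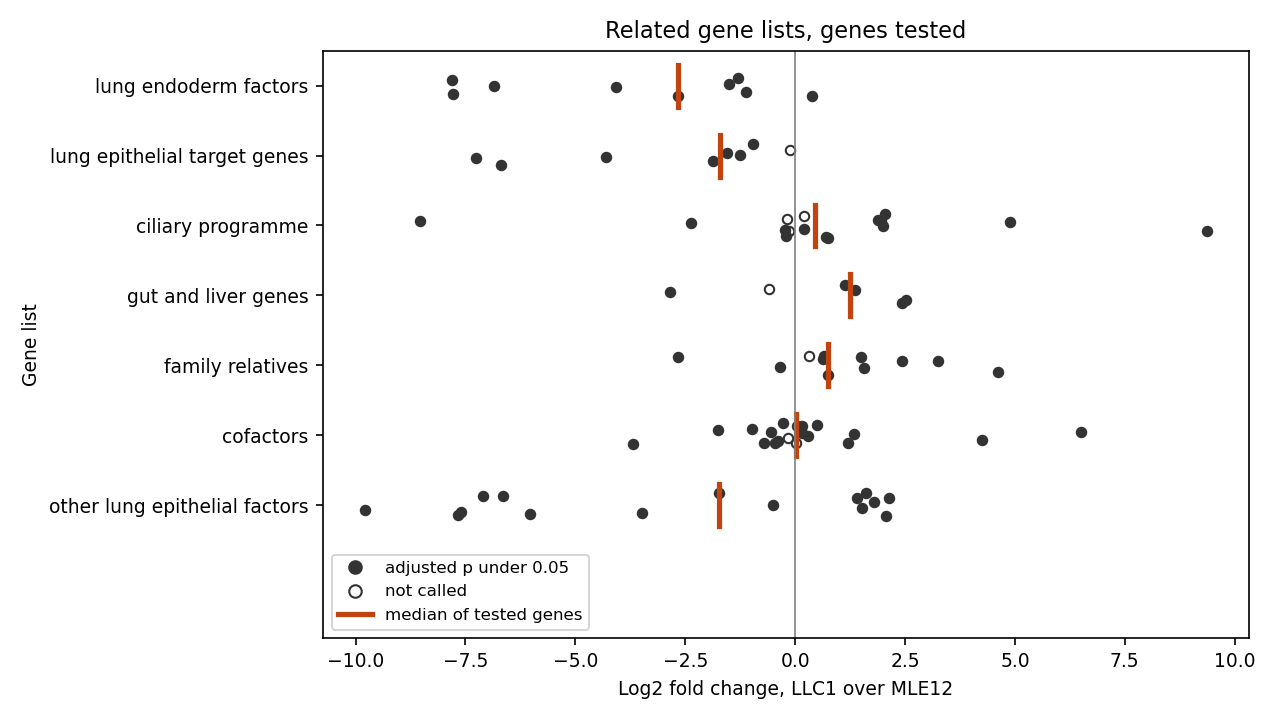
Log2 fold changes, LLC1 over MLE12, of the tested genes of each list, with the factors on top, filled points for adjusted p under 0.05, open points for the others and a bar at the median. The medians are -2.67 for the factors, -1.71 for their lung epithelial targets and -1.73 for other lung epithelial factors. They are 0.46 for the ciliary programme, 1.25 for gut and liver genes, 0.75 for family relatives and 0.03 for cofactors.

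Genes around the factors were called in both directions. So were all genes tested, with 40.7% higher in LLC1 and 40.9% lower. Mixed directions by themselves therefore say nothing particular about these regions. Within 250 kb of Nkx2-1, 5 of 10 genes were tested, with 3 higher in LLC1 and 2 lower. Pax9, a paired-box factor 155 kb away, averaged 11.7 CPM in LLC1, against 1.91 CPM in MLE12 (2.63 ± 0.11), and Mbip was slightly lower in LLC1 (-0.46 ± 0.07). Slc25a21, named after its values were seen, was higher, with 862 counts over LLC1 and 13 over MLE12 (6.50 ± 0.27). Near Foxa1, 2 of 7 genes were tested, 1 higher in LLC1 and 1 lower. Mipol1 was higher (0.97 ± 0.06), and Ttc6, which lies closer and was named after its values were seen, was lower with 1 count over LLC1 and 307 over MLE12 (-7.28 ± 0.57). Near Foxa2 none of 5 genes had enough counts. The single neighbour of Gata6 beyond its antisense gene, Mib1, was lower (-0.25 ± 0.04), and near Foxp1 Eif4e3 was higher (2.05 ± 0.09). Of 3 genes that overlap Foxp1, Gm20696 extends beyond it and also covers Eif4e3. Its counts were 3.70% of those of Foxp1, and it was higher in LLC1 (0.35 ± 0.13). Which part of its span gave these reads was not tested. Inside Foxp1, Gm20705 was not called, and Gm22328 had 1 count over LLC1 and 3 over MLE12. Gm25470 inside Foxp2 had 0 counts over LLC1 and 2 over MLE12. The 1 tested neighbour of Foxp2, Ppp1r3a, a glycogen phosphatase subunit gene likewise named after its values were seen, was lower in LLC1, with 0 counts over LLC1 and 218 over MLE12. Near Cebpa, 3 of 6 tested genes were lower in LLC1, among them the receptor gene Lrp3 at 0.0461 CPM in LLC1, against 16.9 CPM in MLE12 (-8.47 ± 0.19), while Pepd, Gpatch1 and Cebpg were higher. Near Foxp4, 13 genes were tested, with 9 higher in LLC1 and 2 lower. Several of these overlap one another, among them Tomm6 and a numbered gene model with nearly the same counts, so their calls are not independent. Med20 and Tomm6 were higher in LLC1 and Usp49 and the lysosomal regulator Tfeb (-3.18 ± 0.16) lower. The antisense gene inside Foxp4, Gm15556, held 0.517% of its counts. The gene-rich surroundings of Foxj1 held 22 tested genes, with 4 higher in LLC1 and 10 lower. Fbf1, Trim65 and Ubald2 were higher, and the envelope protein gene Evpl (-6.14 ± 0.09), Sphk1 (-5.07 ± 0.11), Trim47, Prpsap1, Ube2o, Exoc7 and Wbp2 lower. Around Foxa3, 26 genes were tested, with 8 higher in LLC1 and 9 lower. Eml2 (3.32 ± 0.05), Sympk and Vasp were higher, and Six5 (-1.73 ± 0.12), Qpctl, Opa3, Fbxo46, Dmpk, Mypop, Snrpd2 and Irf2bp1 lower.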

How the data were processed

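RNA of 2 mouse cell lines was analysed in 4 libraries each. The authors deposited raw counts for each gene, beside columns of name, coordinates and length. Tools credited to the submitters' processing notes are CASAVA, TopHat2, featureCounts and edgeR, on build mm10. Their versions, the strand setting and the treatment of reads with several alignments are not given in the sources used here, and the labels' protocols name no step that marks strand. The deposited length column is called a coding length, but 38.1% of its values are multiples of 3, so it includes untranslated bases. More genes held 2 counts than 1 in each of the libraries (1392 and 1130 genes in LLC1 replicate 1), a pattern that counting both mates of a pair would give.

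Groups follow the cell line in the labels. Counts were tested with edgeR 4.0.16 in R 4.3.3: filterByExpr, TMM (factors 0.924 to 1.05), glmQLFit with robust estimation and glmQLFTest, without covariates, with Benjamini-Hochberg adjustment over all 18546 tested genes and calls under 0.05. SE is the log2 fold change divided by the square root of F. Shares of paralogs were compared by exact permutation of libraries. Libraries of a line differed by more than sampling noise (chi-square 6.76 to 58.4 times its degrees of freedom). Technical steps can also give such a spread, so it does not show that the libraries are independent cultures. Each was treated as 1 replicate in the fit. The reads carry no molecular identifiers, so floors cover counting error only. On simulated counts for the same 18546 genes, with LLC1 changed against MLE12, the fit called 43 of 50 genes changed 1.5-fold, 49 of 50 changed 2-fold, all 50 changed 4-fold and all 50 changed 8-fold, and 7 of 18346 unchanged genes. The 200 changed genes all lay above 1 CPM in MLE12. In the data 81.6% of tested genes were called, and Foxj1 averaged 0.421 CPM in MLE12, so these rates may not carry over. Whether replicate numbers pair the libraries was not settled, and the main fit did not pair them.

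The 10 genes, the gene lists and the tests were chosen with earlier results of these data known. From each list the text names up to 3 called genes per direction, taking those that changed most among genes that reach 10 CPM in either line. It names neighbours within 250 kb that are called at that level or overlap a factor, leaving out gene models named by number that do not overlap. A neighbour that meets this rule is not reported here. It also names the 5 genes most like Nkx2-1. Other genes named, such as markers and members of a list with few counts, were chosen after their values were seen. Alternatives were DESeq2 1.42.0, limma-voom (limma 3.58.1), other scalings and filters, halved counts, a replicate block, each library left out in turn and, added after the data were seen, a test against a fold of 2 and GENCODE M21 exon lengths.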

Additional observations from a re-analysis of the deposited data

Results flagged for a closer look

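In 32 groups of 4 libraries (levels of the 10 factors and shares of the FOXA and FOXP paralogs in each line), 4 held a library that stood apart from the other 3, where chance flags about 1 group in 20. Foxj1 was at 0.133 CPM in LLC1 replicate 4, against 0.0374 to 0.0462 CPM in the others, a difference of 7 counts against 2. Without that library its log2 fold change was -3.29. The Foxa2 share of the FOXA family was 98.9% in LLC1 replicate 3, against 98.2% to 98.3%. In LLC1 replicate 1 the Foxp1 share of the FOXP family was 19.0%, against 16.7% to 17.0% in the others, and the Foxp4 share 81.0%, against 83.0% to 83.2%. These last values are parts of 1 sum and are not independent.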

How the results depend on the processing

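Apart from the test against a fold of 2, in which Foxp4 (adjusted p = 1) and Cebpa (adjusted p = 0.151) were not called, the 9 tested factors kept their direction and their call under each alternative in which they could be fitted, 18 settings each and 16 for Foxj1, which was lost to a stricter filter (1 CPM in 4 libraries) and to the filter with halved counts. Foxp4, the smallest difference, ranged from 0.27 to 0.43 and Foxj1 from -3.29 to -2.33. Leaving out each library in turn left 8 factors lower in LLC1 and 1 higher. Against a fold of 2, 0 factors were higher in LLC1 and, of all genes, 3100 were higher and 3143 lower. With no filter, Foxa3 reached -2.19 ± 1.08 on the log2 scale, LLC1 over MLE12 (adjusted p = 0.0728 by edgeR), the lung epithelial targets had 1 gene higher in LLC1 and the relatives 4 lower. With at least 1 CPM in 4 libraries, which leaves fewer genes to test, the ciliary programme had 5 and the gut and liver list 2 genes higher in LLC1. Over the libraries left out in turn, the targets had 0 to 1 gene higher in LLC1 (1 without LLC1 replicate 3) and the gut and liver list 1 to 2 lower (2 without MLE12 replicate 1). The Foxa3 share, LLC1 minus MLE12, was -0.0269 percentage points and ranged from -0.0887 to 0.0121. It turned positive without LLC1 replicate 1 or 3 (0.0121 each) and without MLE12 replicate 4 (0.000624). It rests on 3 counts in LLC1, and the cause was not tested. Same-numbered libraries had deviations correlated at -0.0647 to 0.109. With 4 libraries in each line, these values cannot show whether the numbers pair them. With a replicate block 7380 genes were higher in LLC1 and 7415 lower, against 7554 and 7578 without it, and 8 factors were lower and 1 higher as before. Depth limits Foxa3 and Foxj1 in both lines and Nkx2-1, Foxa1 and Foxp2 in LLC1.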
